A study of Mus musculus with 6 samples.

Results

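The 39 genes described here encode proteins of crosslink repair, homologous recombination, mismatch repair and the DNA damage checkpoint. They were taken by name, as a fixed list of symbols that was chosen with earlier results of these data known. All 39 were found among the 25865 genes of the deposited table. All 39 also passed the filter on low values, a mean normalised read count of at least 1. They were measured by RNA sequencing in group 2 innate lymphoid cells (ILC2s), tissue lymphocytes that make type 2 cytokines. The cells of both groups were sorted from C57BL/6 large intestine (labelled colon) and were expanded for 5 days in complete IMDM with 10 ng/mL each of the cytokines IL-33, IL-25, IL-7 and IL-2. In the 3 toyocamycin samples the compound was then present for 16 h, and in the 3 Control samples vehicle. Toyocamycin, a nucleoside related to adenosine, is known for blocking the RNase of the unfolded protein sensor IRE1 and the maturation of ribosomal RNA. For the dose, the vehicle, and the mice's age and sex, no value is given in the sources used here. Whether the replicates were different cultures or mice is not stated either, so each p-value reflects the scatter among these 6 samples, part or all of which may be technical.

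The Fanconi anaemia pathway removes crosslinks that join the strands of DNA. A nuclear core complex attaches ubiquitin to FANCD2 and FANCI at a stalled replication fork, and the modified pair recruits nucleases that unhook the lesion. The break that remains is mended by homologous recombination, in which BRCA1, PALB2 and BRCA2, with help from RAD51B, RAD51C, RAD51D, XRCC2, XRCC3 and RAD54, prepare resected DNA to pair with an intact copy. The kinases ATM and ATR sense breaks and stalled forks and signal through CHK2 and CHK1. Most of these proteins act in S and G2 phase, and many of their genes are known to be transcribed with the cell cycle under E2F factors and the repressive DREAM complex.

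Transcripts of most of these genes fell with toyocamycin. At an adjusted p under 0.05 (limma, Benjamini-Hochberg adjustment over all 16223 genes tested), 34 of the 39 were lower, 3 were higher and 2 did not pass. Among all genes tested, 33.1% were lower and 32.8% were higher by the same rule. These directions use the deposited scaling; when the samples were instead set to equal totals the median of all genes shifted to −0.36, and 35 of the 39 were lower and 2 higher, beside 42.5% and 24.9% of all genes. The median log2 change of the 39 was −1.97, beside −0.03 over all genes tested. A call of lower with a model log2 change of −1 or less was present in 25 of the 39 (20.5% of all genes). One with a model log2 change of −2 or less was present in 19 (7.84% of all genes). In each of the 34 lower genes all toyocamycin samples lay below all Control samples, a pattern of 34.9% of all genes, and in the 3 higher genes all lay above, a pattern of 34.2% of all genes. The deepest falls were those of Zranb3, Ankle1, Fanca, Brca2, Fancd2 and Rad51c, each at least 14.3-fold. Rad52, Xrcc3 and Nbn rose, but the call of Nbn ended with equal totals (log2 change 0.04). Values are normalised read counts, that is, reads per gene divided by 1 factor per sample. Group values are means ± SD (n = 3), and a fold is the ratio of the means. Each log2 change with its standard error (SE) comes from the model on log2(normalised read count + 1). The added 1 slightly shrinks the change of genes with few reads. Since the model averages logs, its change can still be larger or smaller than the fold.

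**Figure D1:**
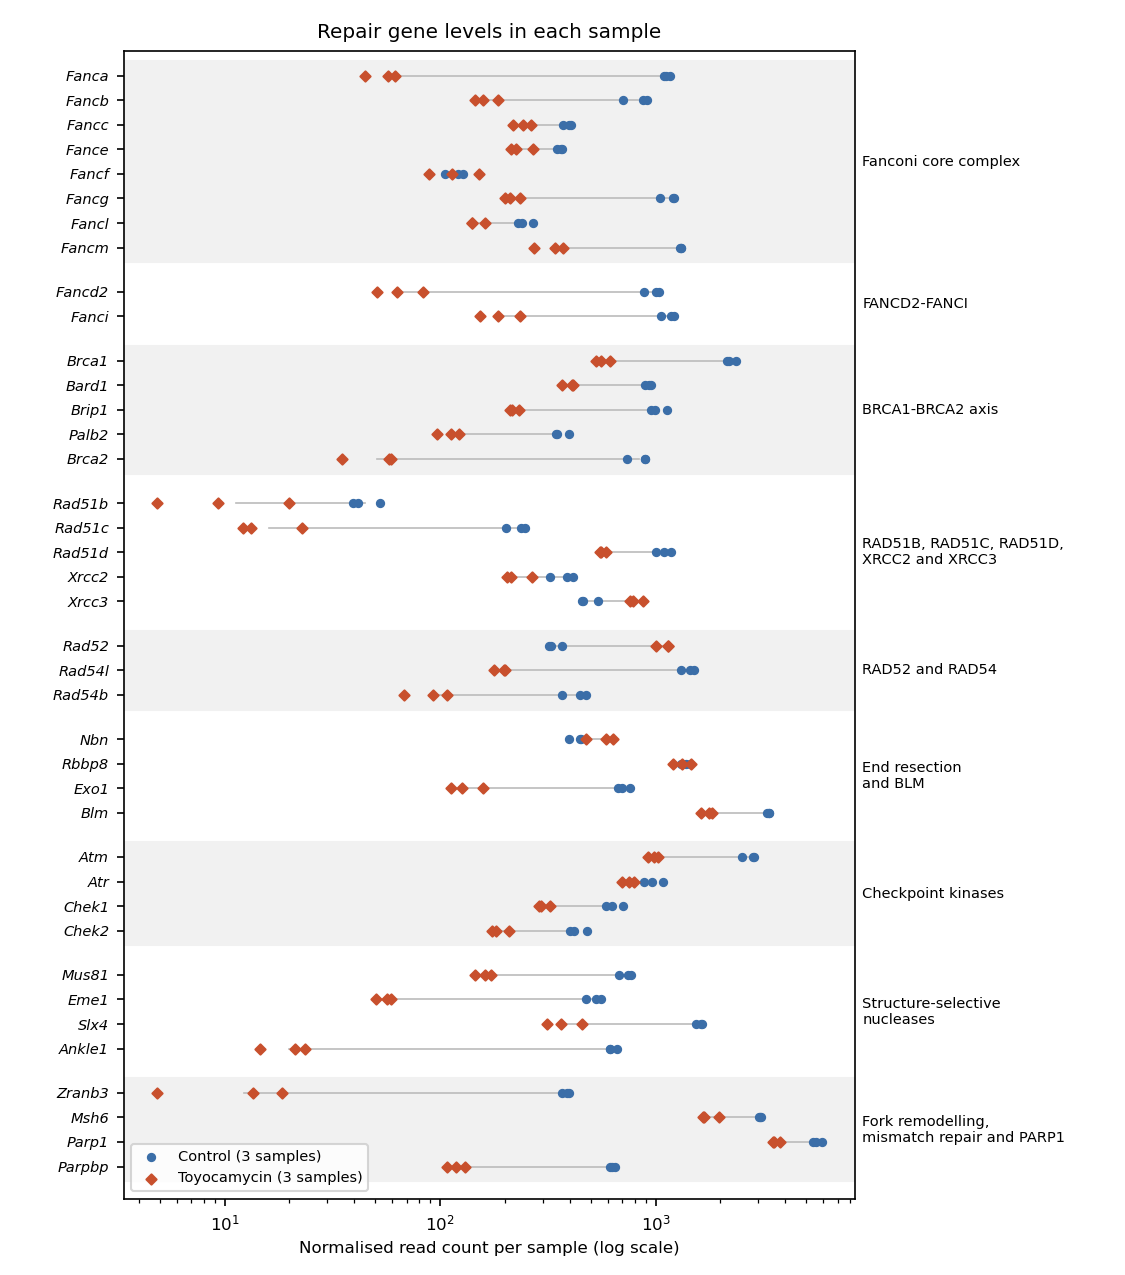
Normalised read count of each of the 39 repair genes (rows, grouped by role) in each Control sample (circles) and toyocamycin sample (diamonds), on a log axis. Grey lines join the group means. In 37 rows the groups are apart; in Fancf and Rbbp8 they overlap.

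The sequences around the starts of 5 of these genes are given first, because the genes fell together and their promoters can be set side by side. RefSeq promoter windows on build GRCm38.p6, which run from 250 bases before to 50 bases after a gene's start, were matched by symbol for 32 of the 39. No window was matched for Fancd2, Rad51d, Xrcc2, Rad54b, Nbn, Rbbp8 and Exo1. Windows were searched on both strands for an E2F element, written as TTTGGCGC, TTTCCCGC, TTTCGCGC or TTTGCCGC, for the cell cycle homology region (CHR) as TTTGAA, and for the NF-Y box as CCAAT. The windows below are those of the 5 genes with the largest changes among members that hold an E2F or CHR match, and capitals mark that match. For Zranb3 and Rad51c, which have several windows, the one at the annotated gene start is shown. They lie at chr1:128102998-128103297, minus strand (Zranb3), chr8:71405762-71406061, plus strand (Ankle1), chr5:150522371-150522670, plus strand (Brca2), chr11:87404905-87405204, minus strand (Rad51c) and chr11:94653694-94653993, minus strand (Eme1).

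Zranb3: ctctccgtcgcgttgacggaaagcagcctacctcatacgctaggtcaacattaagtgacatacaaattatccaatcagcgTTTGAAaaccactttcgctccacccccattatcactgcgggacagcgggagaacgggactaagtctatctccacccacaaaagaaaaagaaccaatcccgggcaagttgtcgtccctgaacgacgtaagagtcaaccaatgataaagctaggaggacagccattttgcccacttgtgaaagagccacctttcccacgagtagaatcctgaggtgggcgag

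Ankle1: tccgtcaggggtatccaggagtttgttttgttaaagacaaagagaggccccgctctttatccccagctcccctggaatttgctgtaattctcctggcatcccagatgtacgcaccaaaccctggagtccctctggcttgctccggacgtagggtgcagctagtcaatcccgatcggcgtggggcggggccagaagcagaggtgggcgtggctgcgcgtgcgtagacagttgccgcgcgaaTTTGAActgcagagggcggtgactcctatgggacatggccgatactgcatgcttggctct

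Brca2: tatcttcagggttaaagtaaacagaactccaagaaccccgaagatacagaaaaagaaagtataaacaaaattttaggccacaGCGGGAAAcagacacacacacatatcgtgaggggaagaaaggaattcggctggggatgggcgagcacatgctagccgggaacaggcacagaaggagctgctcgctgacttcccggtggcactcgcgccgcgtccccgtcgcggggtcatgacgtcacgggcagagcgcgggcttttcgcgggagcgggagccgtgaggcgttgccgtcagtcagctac

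Rad51c: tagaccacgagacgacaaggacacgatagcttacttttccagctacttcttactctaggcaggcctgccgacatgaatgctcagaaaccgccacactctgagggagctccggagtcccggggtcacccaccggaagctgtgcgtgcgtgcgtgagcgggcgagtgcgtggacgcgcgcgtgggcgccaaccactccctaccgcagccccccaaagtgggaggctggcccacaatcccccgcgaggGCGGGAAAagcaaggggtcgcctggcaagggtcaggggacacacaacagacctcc

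Eme1: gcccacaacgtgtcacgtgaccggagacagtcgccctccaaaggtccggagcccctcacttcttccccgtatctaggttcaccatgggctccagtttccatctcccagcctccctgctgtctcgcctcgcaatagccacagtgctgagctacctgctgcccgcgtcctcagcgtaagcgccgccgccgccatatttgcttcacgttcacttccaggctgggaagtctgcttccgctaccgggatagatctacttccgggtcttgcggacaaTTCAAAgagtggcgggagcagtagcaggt

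The matches in Zranb3 (first base at −170 relative to the start), Ankle1 (−10) and Eme1 (22) are CHR letters, on the reverse strand in Eme1, and those in Brca2 (−168) and Rad51c (−5) are E2F letters on the reverse strand. The RefSeq start of the Eme1 window lies 221 bases from the GENCODE gene start, and those of the other 4 lie within 9 bases of it. Some windows that were not printed lie farther from the GENCODE start, as for Fancc (65533 bases), Slx4 (2092), Fancl (949), Fanci (409) and Chek1 (407). The E2F matches of Fancg and Bard1 are in windows 205 and 174 bases from that start. The shares that follow therefore do not all describe the annotated gene start. An E2F match was present in the windows of 6 of the 32 members (18.8%), namely Brca2, Rad51c, Fancg, Bard1, Chek2 and Msh6. The share was 4.37% among the 12183 tested genes with a window and 2.61% among all 27025 genes of the promoter table. A CHR match was present in 6 members as well (18.8%, Zranb3, Ankle1, Eme1, Parpbp, Rad51b and Bard1), beside 14.8% of tested genes and 20.2% of the table. Only Bard1 held both, and they did not overlap. A CCAAT box was present in 19 of the 32 (59.4%), beside 42.4% of tested genes. The counts are descriptions, and related letters were not searched.

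Genes of the Fanconi core complex, the ubiquitin ligase of the pathway, fell unevenly. Fanca, which encodes the scaffold subunit FANCA (chromosome 8, 123268300 to 123318576, GRCm38), had 1100.0, 1173 and 1114 in Control and 62.1, 44.9 and 57.1 with toyocamycin. The toyocamycin samples kept 4.84% of the Control mean, a 20.7-fold fall (log2 change −4.36, SE 0.14, adjusted p = 1.6e-16). Fancg, the partner that binds FANCA directly, read 1055, 1219 and 1205 in Control and 234, 211 and 199 with toyocamycin, so every treated sample lay far under the lowest Control sample. Fancb, which joins FANCL in the catalytic module, fell 5.08-fold from 829 ± 109.9 to 163 ± 21.0, and Fancm, the DNA translocase that brings the complex to DNA, 3.98-fold from 1307 ± 7.37 to 329 ± 50.2.

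Fancl, Fancc and Fance had smaller falls, each under 2-fold. Fancl, the catalytic RING subunit, went from 247 ± 21.8 to 147 ± 12.2 (1.67-fold), Fancc from 391 ± 18.0 to 242 ± 22.5 (1.62-fold) and Fance from 360.5 ± 10.1 to 237 ± 29.6 (1.52-fold). The calls of Fance and Fancl ended with quantile normalization (log2 changes −0.18 and −0.21), and that of Fance also once GC content and gene length were corrected for (−0.19). Fancf, which links the subcomplexes, had 128, 121 and 105 in Control and 114, 88.9 and 152 with toyocamycin. The toyocamycin samples lay on both sides of Control, and the log2 change was −0.03 with a 95% interval of −0.48 to 0.43 (adjusted p = 0.918). With quantile normalization Fancf was called higher (0.54, adjusted p = 0.0428). In all, 7 of the 8 core genes fell (median −1.37), or 5 with 1 higher after quantile normalization. Among all 16223 genes tested 33.1% were lower and 32.8% higher, and with quantile normalization 5163 genes were lower and 5359 higher.

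Both genes of the pair that the core complex modifies fell, beside 33.1% of all genes tested that were lower. Fancd2 (chromosome 6, 113531682 to 113597017) had 1037, 887 and 1004 in Control and 83.2, 50.8 and 63.1 with toyocamycin, which left 6.73% of the Control mean (log2 change −3.90, SE 0.16, adjusted p = 5.36e-15). Fanci, its partner in the clamp on DNA, had 1063, 1221 and 1185 in Control and 235, 185 and 153 with toyocamycin, a 6.05-fold fall. The groups were far apart in both genes, although Fanci exons share 16.0% of their length with the opposite-strand gene Polg, which went from 4659 ± 165 to 4718 ± 158 and did not pass the test.

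All 5 genes of the BRCA1 and BRCA2 axis fell at least 2-fold. Among all genes tested 20.5% were called lower with a log2 change of −1 or less. Brca1 (chromosome 11, 101488764 to 101551955), which promotes resection and recruits PALB2, had 2203, 2352 and 2142 in Control and 532, 612 and 561 with toyocamycin (log2 change −1.97, SE 0.074, adjusted p = 1.37e-15). Bard1, its obligate partner in the ubiquitin ligase, fell less, 2.33-fold from 926 ± 30.9 to 397 ± 24.6. Brip1, the helicase that binds BRCA1, fell 4.68-fold from 1026 ± 91.7 to 219 ± 11.1, and Palb2, the bridge to BRCA2, 3.28-fold from 363 ± 28.1 to 111 ± 12.9. Brca2 (chromosome 5, 150522630 to 150570329), which acts on the resected single strand, had 894, 891 and 736 in Control and 58.1, 59.3 and 35.2 with toyocamycin. It kept 6.05% of its Control mean, and the 95% intervals of the log2 changes of Brca2 (−4.43 to −3.67) and Brca1 (−2.13 to −1.82) do not meet.

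The genes Rad51b, Rad51c, Rad51d, Xrcc2 and Xrcc3, whose products form complexes that assist recombination on resected DNA, moved in both directions. Rad51c (chromosome 11, 87376645 to 87404954), the subunit common to both complexes, had 203, 247 and 239 in Control and 13.2, 22.9 and 12.1 with toyocamycin, from 10, 27 and 10 reads in the treated libraries. It fell 14.3-fold (log2 change −3.80, SE 0.29, adjusted p = 1.91e-10), with no overlap between groups. Rad51b was the gene of the 39 with the fewest reads, at 41.7, 39.5 and 52.7 in Control and 19.8, 9.32 and 4.86 with toyocamycin. Its fall of 3.94-fold is the least precise (95% interval of the log2 change −3.06 to −1.07), and the treated libraries held 15, 11 and 4 reads. Rad51d fell 1.94-fold from 1094 ± 89.6 to 565 ± 18.5, and Xrcc2, which pairs with it, 1.64-fold from 375 ± 46.8 to 229 ± 33.6; the call of Xrcc2 ended with quantile normalization (−0.29, adjusted p = 0.0849). Xrcc3, the partner of RAD51C in the smaller complex, rose: it had 454, 538 and 463 in Control and 878, 785 and 760.1 with toyocamycin, 1.67-fold higher (log2 change 0.74, SE 0.095, adjusted p = 5.72e-07). Its log2 change was 0.39 with the samples set to equal totals, still called higher, while Rad51c and Xrcc3 kept opposite signs.

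Rad52 and the RAD54 genes parted in the same way. Rad52 (chromosome 6, 119902698 to 119922828), which anneals complementary single strands and acts in a back-up route to BRCA2, had 369.7, 328 and 320.3 in Control and 1138, 1142 and 1009 with toyocamycin. All treated samples were above all Control samples, 3.23-fold on the means (log2 change 1.69, SE 0.093, adjusted p = 7.07e-13), and the change was 1.34 with equal totals. It was the only one of the 39 to rise by 2-fold or more. Rad54l, a translocase that drives the pairing step of recombination, had 1319, 1513 and 1448 in Control and 178, 199 and 200.3 with toyocamycin, 7.41-fold lower (log2 change −2.88, SE 0.097). Rad54b, its paralog, fell 4.80-fold from 431 ± 55.2 to 89.8 ± 20.4; 35.8% of its exon length is shared with Fsbp on the same strand, which went from 31.2 ± 11.5 to 23.9 ± 8.34 and did not pass.

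In end resection, the step that exposes single-stranded DNA, the 2 genes of the first cut did not fall with the deposited scaling and the long-range nuclease did. Nbn, a subunit of the MRE11 complex, had 447, 396 and 451 in Control and 588, 634 and 477 with toyocamycin, with the lowest treated sample just above the highest Control sample. It was called higher (log2 change 0.38, SE 0.11, adjusted p = 0.00447), but the change was 0.04 with equal totals and the call ended (adjusted p = 0.778). Rbbp8, which encodes CtIP, the cofactor of that cut, had 1452, 1390.2 and 1314 in Control and 1321, 1464 and 1204 with toyocamycin. The groups overlapped (95% interval of the log2 change −0.22 to 0.10, adjusted p = 0.492), though Rbbp8 was called lower with equal totals (−0.41), with quantile normalization (−0.18) and after the GC and length correction (−0.48). Exo1, the exonuclease that extends the resected end and also acts in mismatch repair, had 671, 762 and 698 in Control and 112, 126 and 158 with toyocamycin, 5.38-fold lower (log2 change −2.43, SE 0.14). Blm, the helicase that unwinds recombination intermediates, fell 1.93-fold from 3342 ± 45.3 to 1736 ± 104. Of these 4 genes 1 was higher and 2 were lower, or none higher and 3 lower with equal totals. Among all genes 32.8% were higher and 33.1% lower, or 24.9% and 42.5% with equal totals. With the deposited scaling the shares of the 4 genes (25% and 50%) were not far from these, so this count is no result about the group.

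The 4 checkpoint kinases all fell, none of them 4-fold, beside 33.1% of all genes tested that were lower. Atm (chromosome 9, 53439149 to 53536740), the kinase activated at double-strand breaks, had 2832, 2874 and 2527 in Control and 927, 1027 and 982 with toyocamycin (2.80-fold, log2 change −1.49, SE 0.069, adjusted p = 3.64e-14). Atr, activated at stalled forks, had 960.4, 1082 and 881 in Control and 792, 754 and 699 with toyocamycin. The groups were apart by a narrow margin, and the 1.30-fold fall was the mildest among the 34 lower genes (log2 change −0.38, SE 0.087, adjusted p = 0.000635). Chek1, the effector of ATR, fell 2.12-fold from 642 ± 59.3 to 303 ± 17.9, and Chek2, the effector of ATM, 2.30-fold from 434 ± 41.7 to 189 ± 18.7.

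All 4 genes of the structure-selective nucleases fell at least 4-fold. Among all genes tested 7.84% were called lower with a log2 change of −2 or less. Mus81, the catalytic subunit that cuts branched DNA, had 743, 678 and 771 in Control and 172, 161 and 146 with toyocamycin (4.58-fold). Eme1, its partner, had 530.0, 559.9 and 476 in Control and 50.2, 56.7 and 59.5 with toyocamycin and fell further (9.41-fold, log2 change −3.21, SE 0.16); the 95% intervals of the log2 changes of Eme1 (−3.55 to −2.87) and Mus81 (−2.43 to −1.95) do not meet. Slx4, the scaffold that holds MUS81 and other nucleases, went from 1602 ± 55.1 to 378 ± 73.0 (4.24-fold). Ankle1, an endonuclease found mainly in blood-forming tissue, had 617, 613 and 665 in Control and 21.1, 23.7 and 14.6 with toyocamycin (chromosome 8, 71406010 to 71409904). The treated libraries held 16, 28 and 12 reads of it, and 3.13% of the Control mean was left.

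Zranb3 (chromosome 1, 127954184 to 128103047), a translocase that reverses stalled forks, had the most negative model change of the 39, with an interval (−5.74 to −4.30) that overlaps that of Ankle1 (−5.40 to −4.51). On the ratio of means Zranb3 fell 31.2-fold and Ankle1 31.9-fold. The normalised read counts of Zranb3 were 395, 389.7 and 368 in Control and 18.5, 13.6 and 4.86 with toyocamycin, from 14, 16 and 4 reads in the treated libraries (log2 change −5.02, SE 0.34, adjusted p = 2.84e-11). In proportion to their mean the treated samples differed more than the Control samples, and the highest lay far below the lowest Control. The change ran from −5.38 to −4.51 with 1 sample left out. Parpbp, which encodes an inhibitor of recombination, fell 5.28-fold from 629 ± 15.3 to 119 ± 11.2. Msh6, a mismatch recognition protein, had 3024, 3038 and 3087 in Control and 1664, 1962 and 1679 with toyocamycin (1.72-fold lower). Parp1, the sensor of strand breaks that makes poly(ADP-ribose), had 5539.7, 5909 and 5395 in Control and 3510.2, 3777 and 3541 with toyocamycin and fell 1.56-fold (log2 change −0.64, SE 0.055, adjusted p = 1.12e-09).

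**Figure D2:**
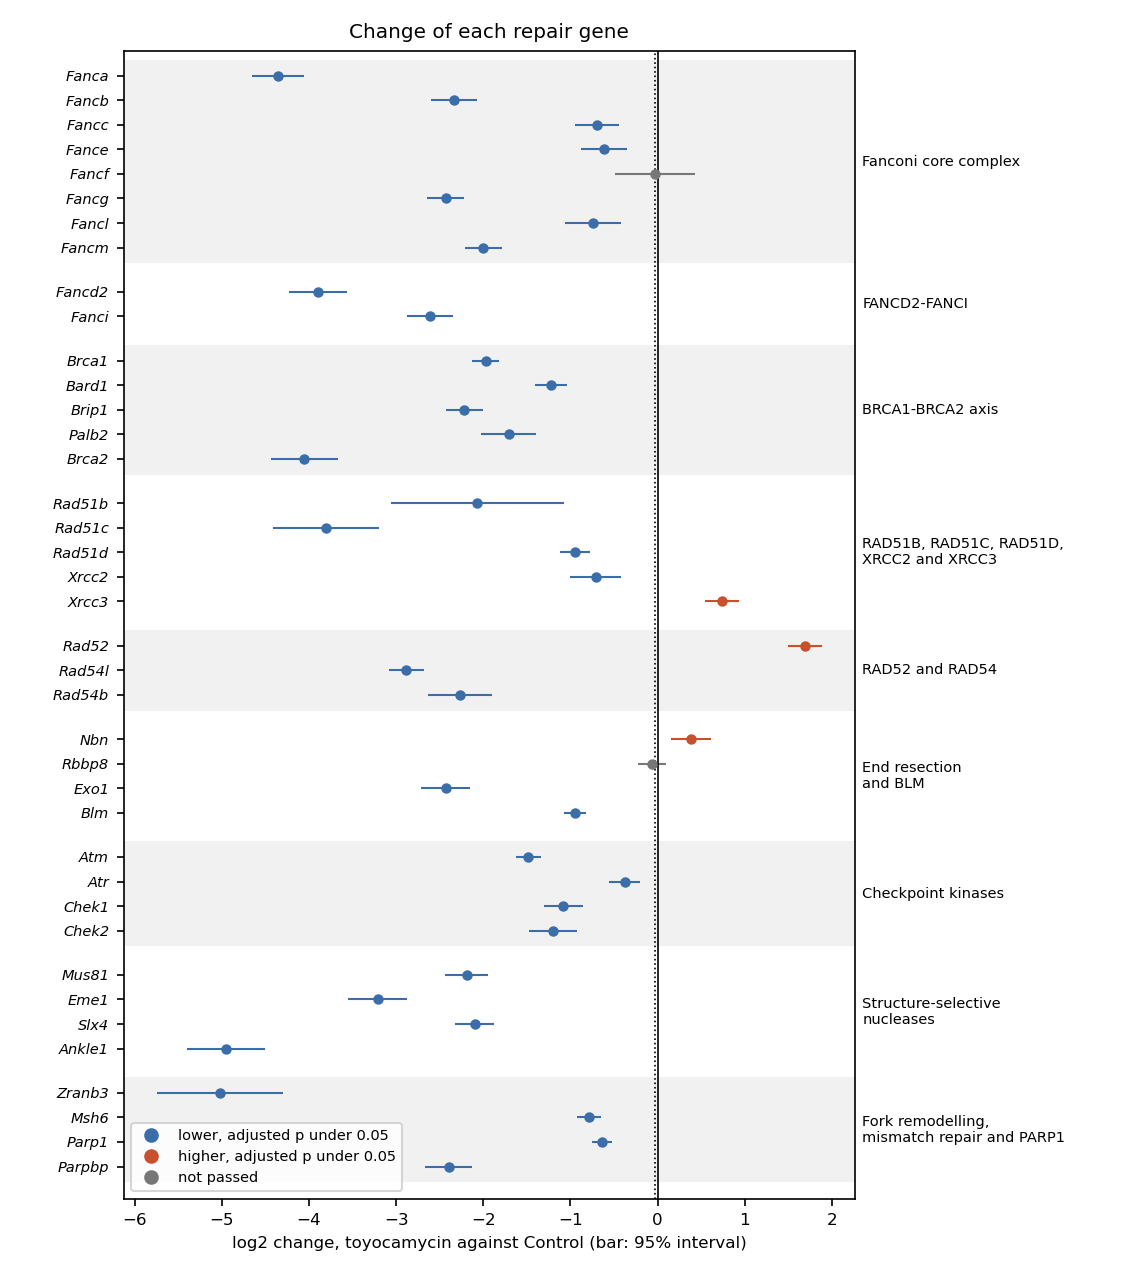
Model log2 change of each repair gene, toyocamycin against Control, with its 95% interval, grouped by role. The solid vertical line is 0 and the dotted line the median of all genes tested (−0.03). All genes of the nuclease group lie below −2, the checkpoint kinases lie between −1.49 and −0.38, and Rad52, Xrcc3 and Nbn lie above 0.

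Per kilobase of exon (GENCODE M21 lengths on GRCm38, the union of all exons of a gene), the levels of the 39 in Control ran over a wide range. Parp1 was highest, at a level of 1061 in Control and 682 with toyocamycin, followed by Msh6 at 702 in Control and 407 with toyocamycin. Rad51b was lowest in Control, with levels of 11.9 in Control and 3.02 with toyocamycin, and Zranb3 was lowest after treatment, with 42.3 in Control and 1.35 with toyocamycin. Parp1 and Msh6 thus remained the most abundant of the 39 in both groups on this scale. Rad52 went the other way, from a level of 59.0 per kilobase in Control to 191 with toyocamycin. Across the 39 genes the log2 change had a Spearman correlation of −0.04 with gene span, −0.18 with exon length, −0.23 with the number of exon blocks, −0.04 with transcript GC content and −0.12 with the Control level. Over the 15867 tested genes with a gene model these were 0.04, 0.03, −0.05, −0.19 and 0.00. They are descriptions over genes that share the same 6 libraries.

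Other repair genes, from lists that hold none of the 39, were lower more than higher. Of 122 measured, 77 were lower, 26 higher and 19 did not pass (median −0.68). Among all genes 33.1% were lower and 32.8% higher, or 42.5% and 24.9% with equal totals. Of 24 other recombination factors 17 were lower and 2 higher. Hrob, which recruits the MCM8 and MCM9 helicase, fell 11.8-fold, and the end-joining polymerase gene Polq 10.0-fold from 1301 ± 101 to 129.8 ± 5.64. Of 14 Fanconi accessory factors, 8 were lower and 3 higher (11 lower and 1 higher with equal totals). Among them Cenpx, a subunit of the complex that anchors FANCM, fell 5.64-fold, and its partner Cenps 3.43-fold.

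Of 15 checkpoint adaptors, which carry signals to and from the kinases, 12 were lower and 2 higher. Among all genes 33.1% were lower and 32.8% higher, or 42.5% and 24.9% with equal totals. Clspn, the adaptor through which ATR activates CHK1, had 4157, 4205 and 4223 in Control and 498, 561 and 469 with toyocamycin, 8.24-fold lower, and the fork protection gene Timeless fell 7.02-fold. In the list of the BRCA1-A complex and 53BP1, 5 of 12 were lower and 4 higher (with equal totals, 8 and 3). With the deposited scaling these shares (41.7% and 33.3%) were near those of all genes, so this count is no result about the list. Its largest changes were falls of Babam1 (7.08-fold) and Mdc1 (5.85-fold), both of which encode proteins recruited to breaks. Of 10 non-homologous end joining genes 8 were lower and 2 higher, or 8 and 0 with equal totals. Prkdc, the DNA-dependent kinase, fell 9.91-fold from 2362 ± 222 to 238 ± 24.6, and the KU70 gene Xrcc6 3.61-fold.

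In mismatch repair 4 of 6 further genes were lower and 1 higher, and Mlh3 fell 3.04-fold. The shares over all genes were 33.1% lower and 32.8% higher, or 42.5% and 24.9% with equal totals. Of 18 base excision and single-strand break repair genes 15 were lower and 1 higher. Mutyh, the glycosylase that removes adenine opposite oxidised guanine, fell 15.8-fold from 258 ± 21.5 to 16.4 ± 2.08, and the glycosylase gene Neil3 6.29-fold. Nucleotide excision repair genes had more rises than falls, 8 higher and 4 lower of 13 with a median of 0.33, although the median turned to −0.02 with equal totals (6 higher and 5 lower). Ercc8, which acts where transcription stalls at damage, rose 2.71-fold from 141 ± 14.1 to 381 ± 82.1, and the damage sensor gene Ddb2 fell 4.26-fold. Of 10 fork remodelling and translesion genes 4 were lower and 3 higher (with equal totals, 7 and 3). With the deposited scaling these shares (40% and 30%) were near those of all genes, so this count is no result about the list. Rev1, a translesion polymerase, rose 2.34-fold, and Primpol, which restarts synthesis past lesions, fell 2.33-fold.

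**Figure D3:**
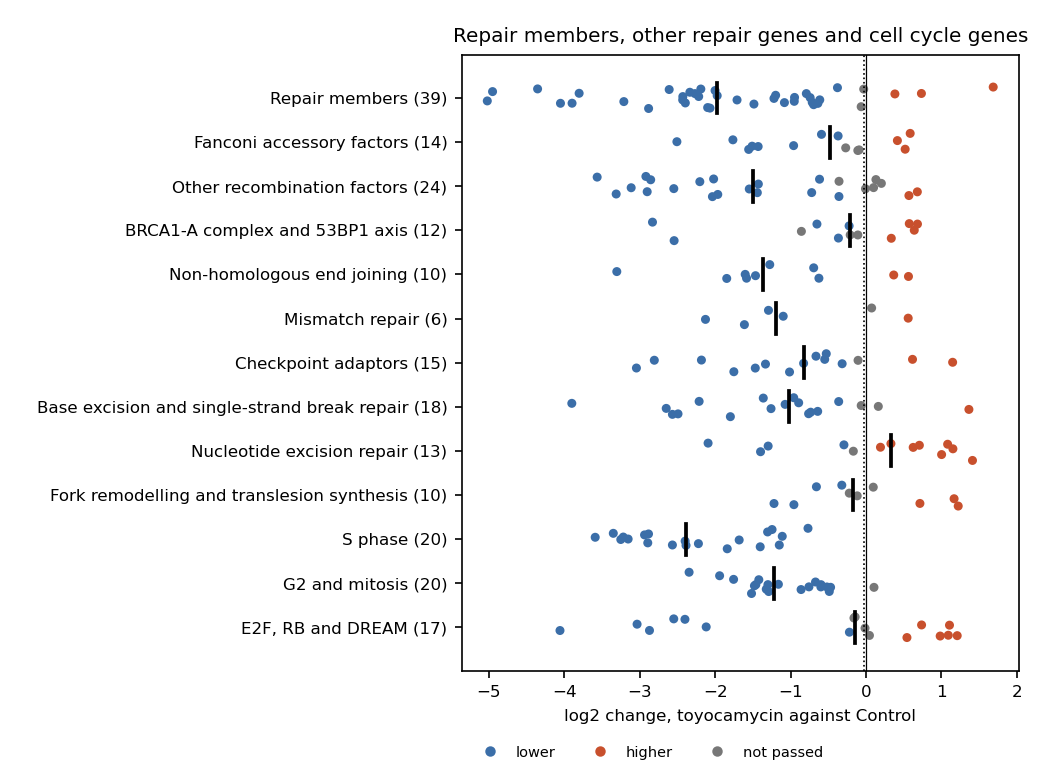
Model log2 change of each gene (points; blue lower, red higher, grey not passed) in the 39 repair members, 9 lists of other repair genes and 3 cell cycle lists, with the number measured in brackets. Black bars are list medians and the dotted line is the median of all genes tested. The medians of the members (−1.97) and of the S phase list (−2.39) lie farthest to the left, and that of nucleotide excision repair (0.33, or −0.02 with equal totals) lies to the right of 0.

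Cell cycle transcripts moved with the repair genes. All 20 S phase genes of the list were lower (median −2.39), as were 19 of 20 G2 and mitosis genes (median −1.22). Among all genes tested 33.1% were lower. Tk1 and Rrm2, which make DNA precursors, fell 11.9-fold and 10.1-fold, and the mitotic genes Top2a and Ccna2 5.08-fold and 3.83-fold. In these bulk samples fewer cycling cells and less RNA per cell cannot be told apart, and the part of the cell cycle in the fall of the repair genes was not tested. Among 17 genes of the E2F, RB and DREAM system 7 were lower and 6 higher (41.2% and 35.3%). These shares are near those of all genes (33.1% and 32.8%), so this count is no result about the list. With equal totals 11 were lower and 6 higher, beside 42.5% and 24.9% of all genes. E2f1, an activator of S phase genes counted in the S phase list, had 1370.0, 1320.0 and 1491 in Control and 213, 264 and 228 with toyocamycin, 5.93-fold lower, and E2f8 fell 16.6-fold. The RB-family genes differed: Rbl1, itself an S phase gene, fell 8.15-fold from 4114 ± 114 to 505 ± 78.2, while Rbl2, the family member of quiescent cells, fell 1.16-fold from 10379 ± 95.4 to 8930.3 ± 536. Trp53 rose 1.98-fold, from 3443 ± 82.3 to 6827 ± 472, and Cdkn1a, the inhibitor through which p53 engages DREAM, 2.16-fold, from 3563 ± 115 to 7686 ± 160.5.

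Several of the 39 genes share a start region with a gene transcribed the other way, so that both can be described side by side. In GENCODE M21, 12 of them have a measured protein-coding neighbour on the opposite strand that starts within 1000 bases. These pairs were looked for after the values of the repair genes had been seen. Of the 11 pairs whose repair gene was lower, the neighbour was higher in 4, lower in 4 and did not pass in 3. These shares are near those of all genes (32.8% higher and 33.1% lower), so the counts are no result about the pairs, and the values that follow are descriptions. Zranb3 and R3hdm1, whose starts lie 254 bases apart, moved farthest from each other. R3hdm1, which encodes a protein with an R3H domain, had 2851, 2833 and 2551 in Control and 9862, 10493 and 9299.6 with toyocamycin, 3.60-fold higher (log2 change 1.85, SE 0.059, adjusted p = 9.22e-17), where Zranb3 had a log2 change of −5.02.

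Fancd2 and Emc3, 30 bases apart, were the closest of these pairs. Emc3, a subunit of the ER membrane protein complex, had 2143, 2184 and 2156 in Control and 4210.1, 4207 and 3800.5 with toyocamycin, with a log2 change of 0.91 beside −3.90 for Fancd2. Tex14, 111 bases from Rad51c and best known in germ cells, rose from 10.1 ± 3.95 to 36.0 ± 7.78 (adjusted p = 0.0016), where Rad51c had a log2 change of −3.80. Npat, a regulator of histone genes 307 bases from Atm, was 1.35-fold higher (adjusted p = 1.44e-06), where Atm fell. That call of Npat ended with equal totals (0.08) and after the GC and length correction (0.09).

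Brca1, Palb2 and Fancb had neighbours that did not pass with the deposited scaling. Nbr1, an autophagy receptor gene 194 bases from Brca1, had 3483, 3550.0 and 3855 in Control and 3379, 3619.7 and 3396 with toyocamycin (log2 change −0.07, SE 0.057, adjusted p = 0.327). Dctn5 had a log2 change of −0.01, SE 0.062 and Mospd2 of −0.09, SE 0.062. With equal totals all 3 were called lower (−0.42, −0.36 and −0.43), each far less than its repair gene. In the other 4 pairs with a lower repair gene both fell. The log2 changes were −1.66 for Pomgnt1 beside −2.88 for Rad54l, −1.06 for Nup37 beside −2.40 for Parpbp, −1.17 for Zfyve26 beside −2.07 for Rad51b, and −1.37 for Hscb beside −1.20 for Chek2. Xrcc3 and its neighbour Zfyve21 both rose, with log2 changes of 0.74 and 0.91.

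**Figure D4:**
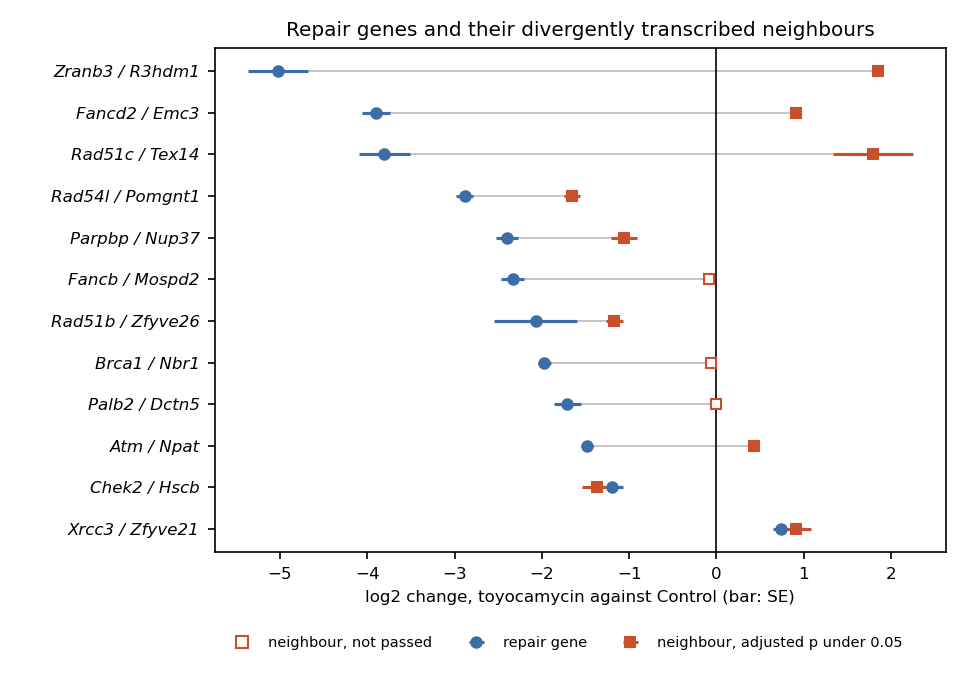
Model log2 change (bar: SE) of 12 repair genes (circles) and of the protein-coding gene that starts within 1000 bases on the opposite strand (squares; open where the test was not passed). The red squares of R3hdm1, Emc3, Tex14 and Npat lie to the right of 0 while their repair genes lie to the left; for Npat this call ended with equal totals.

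Reads from overlapping genes may add to some of these values, since it is not known whether the counting used strand. Exons of Fancc share 16.4% of their length with the antisense gene Gm16133, for which no value was used here. Beside Fanci and Rad54b, exons of Rad54l share 15.4% of their length with the protein-coding gene Lrrc41, those of Fancf 15.0% with Gas2, those of Fancl 13.7% with Vrk2, those of Parpbp 12.1% with Pmch, those of Fanca 10.5% with Zfp276 and those of Eme1 8.0% with Lrrc59, all on the opposite strand. Gas2 fell from 154 ± 27.6 to 55.7 ± 9.99, where Fancf did not pass. Zfp276 went from 690.1 ± 22.9 to 546 ± 19.3, and Lrrc59 from 5343 ± 21.8 to 5140.0 ± 122, so both stood well above the treated values of Fanca and Eme1. The part of such reads in the values of the repair genes was not tested.

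The samples held 22.3 M to 36.7 M reads assigned to genes. All 10 ILC2 markers of the list were above the level of 3 reads per library in Control, and their sum was 397142 to 409076 in Control and 307522 to 335130 with toyocamycin. By the same test, with the deposited scaling, 3 of them were higher (Rora 13.1-fold, Gata3 2.02-fold, Il1rl1 1.20-fold) and 7 lower (Il13 6.95-fold, Il7r 2.98-fold, Areg 2.52-fold, Klrg1 2.41-fold, Il5 1.70-fold, Il17rb 1.22-fold and Id2 1.13-fold). Among all genes tested 32.8% were higher and 33.1% lower by this rule. Markers of other cells above that level in Control were 5 of 8 for T cells, 4 of 6 for ILC3s, 2 of 6 for NK cells and ILC1s, 3 of 5 for B cells, 5 of 6 for macrophages and dendritic cells, 3 of 5 for epithelium and 1 of 5 for mast cells. T cell markers summed to 2053 to 2577 in Control and 1225 to 1475 with toyocamycin, most of it from Lat, and B cell markers to 362 to 464 and 182 to 213, most of it from Cd79b. NK cell and ILC1 markers summed to 7255 to 7649.8 and 9534 to 10889.6, nearly all Gzma, with Ifng at 0 in all samples. ILC3 markers summed to 616 to 692 and 503 to 539, macrophage and dendritic cell markers to 893 to 1303 and 1069 to 1558, epithelial markers to 160 to 217 and 182 to 195, and mast cell markers to 5.27 to 16.3 and 0 to 3.39. Fcer1a of mast cells and Krt20 of epithelium were at 0 in all samples. The part of such cells in the fall of the repair genes was not tested.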

How the data were processed

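RNA sequencing of 3 Control and 3 toyocamycin samples was used. Cutadapt 4.7, FastQC and the build mm10 are named, without order or role, in the submitters' processing notes; which aligner, counter, strand setting and annotation were used was not given in the sources used here. Although named for FPKM, the deposited signal is a normalised read count: per the file's values, each column is whole reads times 1 constant (100% of values whole within 0.01 reads, with recovered factors from 0.757 to 1.18). Totals were 22.3 M to 36.7 M reads, and 3 reads per library equal a normalised count of 2.66 in Control and 3.38 with toyocamycin.

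Values were analysed as log2(normalised count + 1) in the 16223 genes with a mean of at least 1, with limma 3.58.1 (mean-variance trend, R 4.3.3), two-sided, Benjamini-Hochberg adjustment over all genes and a threshold of 0.05. The code was tested on simulated data. Alternatives were edgeR 4.0.16 and DESeq2 1.42.0 on recovered reads, pseudocounts of 0.1 and 4, no filter or a mean of at least 10, equal totals, quantile normalization, each sample left out, the replicate block, and a GC and length correction chosen after seeing the data.

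The members and lists were chosen with earlier results of these data known. All members are named; of each other list, the 2 genes with the largest called change, plus E2f1, Rbl1, Rbl2, Trp53 and Cdkn1a. Some genes that the rule takes are not reported here. Of 270 list entries 269 matched a symbol, Clspn under a corrected spelling, and Shld3 did not.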

Additional observations from a re-analysis of the deposited data

How the results depend on the processing

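The count of 34 lower and 3 higher repair genes of 39 was the same with edgeR, DESeq2, both other pseudocounts, both other filters, each sample left out, the replicate block and, with Rbbp8 called lower in place of Fance, the GC and length correction; it was 35 and 2 with equal totals and 32 and 4 with quantile normalization. Their median log2 change of −1.97 moved to −1.78 with a pseudocount of 4, −2.32 with equal totals, −1.80 with quantile normalization and −1.82 after the GC and length correction, and ran from −2.03 to −1.63 with 1 sample left out. The median of the other repair genes (−0.68) moved to −1.03 with equal totals and −0.58 with quantile normalization. That of the cell cycle genes (−1.32) moved to −1.67, −1.61 and, after the GC and length correction, −1.49. The median of all genes (−0.03) moved to −0.36 with equal totals, 0.031 with quantile normalization and 0.050 after the GC and length correction, and 4040 genes were then higher and 6897 lower with equal totals, in place of 5316 and 5374. On recovered reads edgeR called 4980 genes higher and 5329 lower. Small changes thus depend on which scaling is used, and the cause of the difference between scalings was not tested.

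Fancf, which passed no test with the deposited scaling, had a positive change of 0.54 with quantile normalization, 0.35 after the GC and length correction, 0.030 without Control replicate 1 and 0.16 without toyocamycin replicate 2, and ran from −0.23 to 0.16 with 1 sample left out. Likewise Rbbp8 (not passed) ran from −0.13 to 0.0065, positive without toyocamycin replicate 3, and Dctn5 from −0.036 to 0.032, positive without Control replicate 3 and without toyocamycin replicate 3 (0.019). The nucleotide excision repair median turned to −0.016 with equal totals. Replicate numbers are shared between the groups but nothing says that they mark a shared culture, and the deviations of same-numbered samples did not correlate (−0.03, 0.05 and −0.09). With the replicate block 5272 genes were higher and 5298 lower, and no call among the 39 changed. Depth limits Rad51b most, with 4 to 15 reads per treated library.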
